A study of Saccharomyces cerevisiae SK1 with 8 samples.

Results

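The genes described here are 10 genes of the yeast mating system: the pheromone receptors STE2 (YFL026W) and STE3 (YKL178C), the G protein subunits GPA1 (YHR005C), STE4 (YOR212W) and STE18 (YJR086W), the scaffold STE5 (YDR103W), the kinase FUS3 (YBL016W), the pheromone protease BAR1 (YIL015W), the a-factor protease AXL1 (YPR122W) and the meiotic repressor RME1 (YGR044C). They were chosen by name, as 10 of the 6663 genes listed in the count files, and all 10 passed the filter on low counts that kept 5932 genes for testing. Polyadenylated RNA was sequenced from 8 cultures of MATa/alpha diploid budding yeast of the SK1 background, with 2 biological replicates in each of 4 groups.

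The groups were wild type with DMSO, wild type with anhydrotetracycline (aTC), a pus1 deletion (pus1::KanMX) with DMSO, and the same deletion with aTC. PUS1 encodes a pseudouridine synthase that modifies tRNA and other RNAs. All 4 groups carried at his3 a 3V5-tagged truncated Pus1 behind a tet operator promoter, written altPus1-3V5 in the labels. All 4 also carried at ura3 the repressor TetR-Tup1 behind the RNR2 promoter and TetR behind a tet operator promoter. The inducer aTC was thus added to cells with and without native PUS1, and the wild type carried both constructs too. The controls received the solvent DMSO. Cells grew in rich medium (YEPD) at 30 °C, were treated when diluted from overnight cultures, and were collected 3 h later. The labels do not say how many strain isolates stood behind each genotype. The design asks what the truncated isoform does in each background. For the mating genes, the same libraries show their levels in a diploid and whether the PUS1 genotype or the inducer was accompanied by a change.

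Mating in budding yeast joins a haploid a cell with a haploid alpha cell. A pheromone from the partner binds a receptor (Ste2 on a cells, Ste3 on alpha cells), the G protein Gpa1-Ste4-Ste18 releases its Ste4-Ste18 part, and the scaffold Ste5 gathers a kinase cascade that ends in Fus3 and the transcription factor Ste12. In an a/alpha diploid the a1-alpha2 repressor keeps haploid-specific genes low, among them GPA1, STE4, STE5, STE18, FUS3, AXL1 and RME1. The alpha2-Mcm1 repressor keeps a-specific genes such as STE2 and BAR1 low, and alpha-specific genes such as STE3 lack their activator alpha1. RME1 represses the meiotic inducer IME1, so its repression in diploids is part of what permits meiosis.

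Letters like those of the known operators were found before 3 of the 10 genes in the reference sequence, and these matches are shown because they are of the 2 kinds that the repressors are known to bind. Letters were searched on both strands in the 500 bases before the start codon of 6021 protein-coding genes of the S288C genome, RefSeq release R64. The strain sequenced was SK1, and whether SK1 carries the same letters was not tested. Sequences are on the gene's strand, 5′ to 3′, with the match in capitals and up to 10 bases on each side.
STE2, alpha2-Mcm1 operator spacing: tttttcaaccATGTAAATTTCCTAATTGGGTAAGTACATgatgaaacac
GPA1, a1-alpha2 operator core: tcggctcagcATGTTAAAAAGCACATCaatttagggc
RME1, a1-alpha2 operator core: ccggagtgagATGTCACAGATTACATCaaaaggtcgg
The STE2 match lies at chr6:82352-82380 on the plus strand, 228 to 200 bases before the start codon. The letters searched for this spacing are their own reverse complement, so any such match is found on both strands. The GPA1 match lies at chr8:115257-115273 on the minus strand, 356 to 340 bases before the start codon. The RME1 match lies at chr7:584280-584296 on the minus strand, 404 to 388 bases before the start codon, and a match on the opposite strand overlaps it. The a1-alpha2 core was searched as ATGTNNNNNNNNACATC and occurred in this window of 0.498% of all genes, against GPA1 and RME1 among the 10. The alpha2-Mcm1 spacing was searched as ATGT and ACAT with 21 bases between, and it occurred in 1.26% of all genes, against STE2 among the 10. The a1-alpha2 core was not matched before STE4, STE5, STE18, FUS3 or AXL1, nor the alpha2-Mcm1 spacing before BAR1, which says only that these letters are not in this window.

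The pheromone response element, to which Ste12 binds, was searched as TGAAACA on both strands. It occurred before 6 of the 10 genes (STE2, STE4, STE18, FUS3, BAR1 and AXL1) and before 12.0% of all genes. The elements of a kinase, a protease and a receptor are shown as examples of the letters shared across roles.
FUS3: tacagggcatTGAAACAattgcagaaa
BAR1: gacatcatgcTGAAACAtggcatgtaa
STE2: aagtacatgaTGAAACAcatatgaaga
The FUS3 element lies at chr2:192295-192301, 156 to 150 bases before the start codon. The BAR1 element lies at chr9:322068-322074, 274 to 268 bases before it. The STE2 element lies at chr6:82383-82389, 197 to 191 bases before it, and so begins 3 bases after the end of the STE2 operator. All 3 genes are on the plus strand. Each has another match in this window that is not shown. It lies 262 to 256 bases before the start codon for FUS3 (opposite strand), 184 to 178 for BAR1 and 323 to 317 for STE2. A match of letters is a description of the reference sequence and not a site shown to be bound. With a window of 300 bases the a1-alpha2 core was found before 0 of the 10 genes and the pheromone response element before 5. With 800 or 1000 bases the genes with a match were those found with 500. The share of all genes with a pheromone response element was 7.17% at 300 bases, 18.8% at 800 and 23% at 1000. For the a1-alpha2 core these shares were 0.183%, 1.01% and 1.23%, and for the alpha2-Mcm1 spacing 0.747%, 1.79% and 2.28%.

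Total counts ran from 51331492 to 61960514 per library, and the replicates of each group differed by more than sampling noise. PUS1 checked the labels. It had 2 and 4 reads in the deletion with DMSO, 135.2 and 132 RPKM in wild type with DMSO, 687.2 and 659.4 RPKM in wild type with aTC, and 471.4 and 553.3 RPKM in the deletion with aTC. RPKM is the read count scaled to the length of the listed feature in kilobases and to the size of the library. The levels under aTC sum whatever the native gene and the construct contribute to the listed PUS1 feature.

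All 10 genes were expressed at low levels. Their mean levels over the 8 libraries ran from 0.176 RPKM for STE3 to 9.72 RPKM for AXL1, against a median of 36.8 RPKM over the 6236 genes with a read. Of those genes, 3.5% lay below STE3 and 18.71% below AXL1. As CPM of unscaled library totals, the 10 together came to 70.1 to 76.7 in wild type and 84.2 to 94.6 in the deletion. This is a description with no test, in which AXL1 and STE5 hold most of the reads. The scaling factors used for RPKM were 0.963 to 0.994 in wild type and 1.011 to 1.046 in the deletion, so scaling narrows this gap. In bulk RNA, a low level in every cell and a high level in few cells cannot be told apart.

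**Figure D1:**
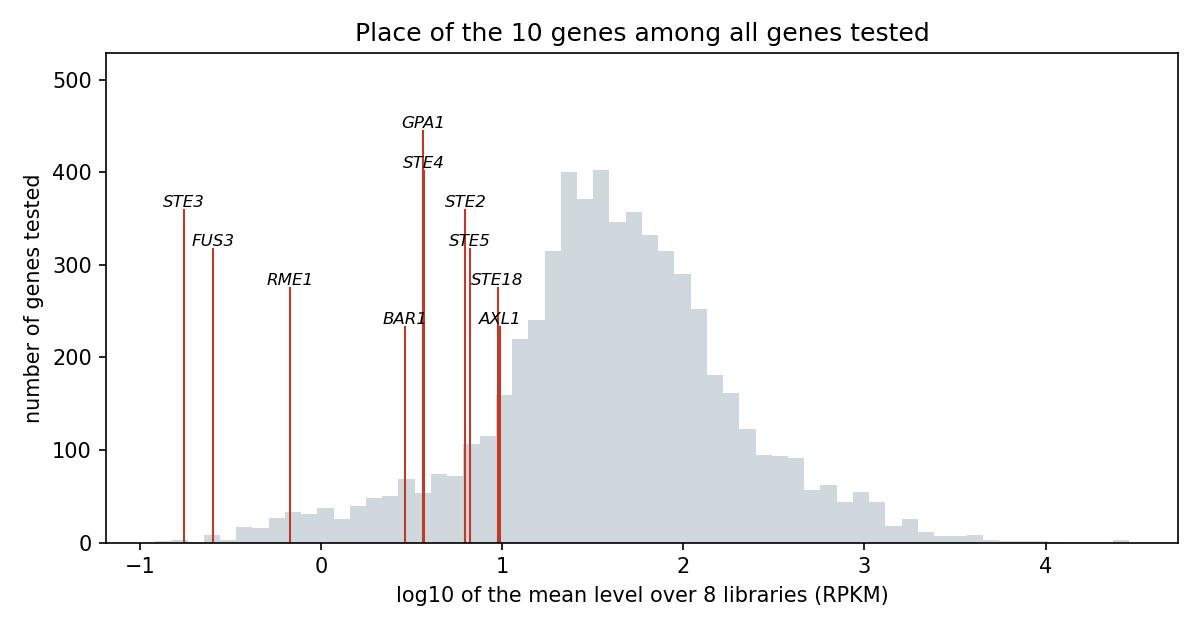
Histogram of the mean level over 8 libraries (log10 RPKM, x axis) for the 5932 genes tested, with the number of genes on the y axis. Red lines mark the 10 mating genes, all of them left of the bulk of the distribution. Line heights carry no value and only separate the names.

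By mean level the order was AXL1 (9.72 RPKM), STE18 (9.45), STE5 (6.64), STE2 (6.28), STE4 (3.70), GPA1 (3.68), BAR1 (2.90), RME1 (0.679), FUS3 (0.255) and STE3 (0.176). The library ranges of neighbours did not overlap between STE2 and STE4, GPA1 and BAR1, BAR1 and RME1, or RME1 and FUS3. The pooled ranges of the other neighbours overlapped. STE18 was nonetheless above STE5 in 8 of 8 libraries and FUS3 above STE3 in 7 of 8, while AXL1 was above STE18 in 3, STE5 above STE2 in 5 and STE4 above GPA1 in 4. Within the G protein, STE18 (the gamma subunit) stood above STE4 (beta) and GPA1 (alpha), whose means were close. STE18 overlaps another listed gene, YJR087W, and reads shared by overlapping genes were dropped, so its level is uncertain. Each library held 1662 to 2268 reads of AXL1 and 825 to 1253 of STE5, but 22 to 48 of RME1, 9 to 18 of FUS3 and 3 to 26 of STE3. For those last 3 genes counting error alone was large.

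**Figure D2:**
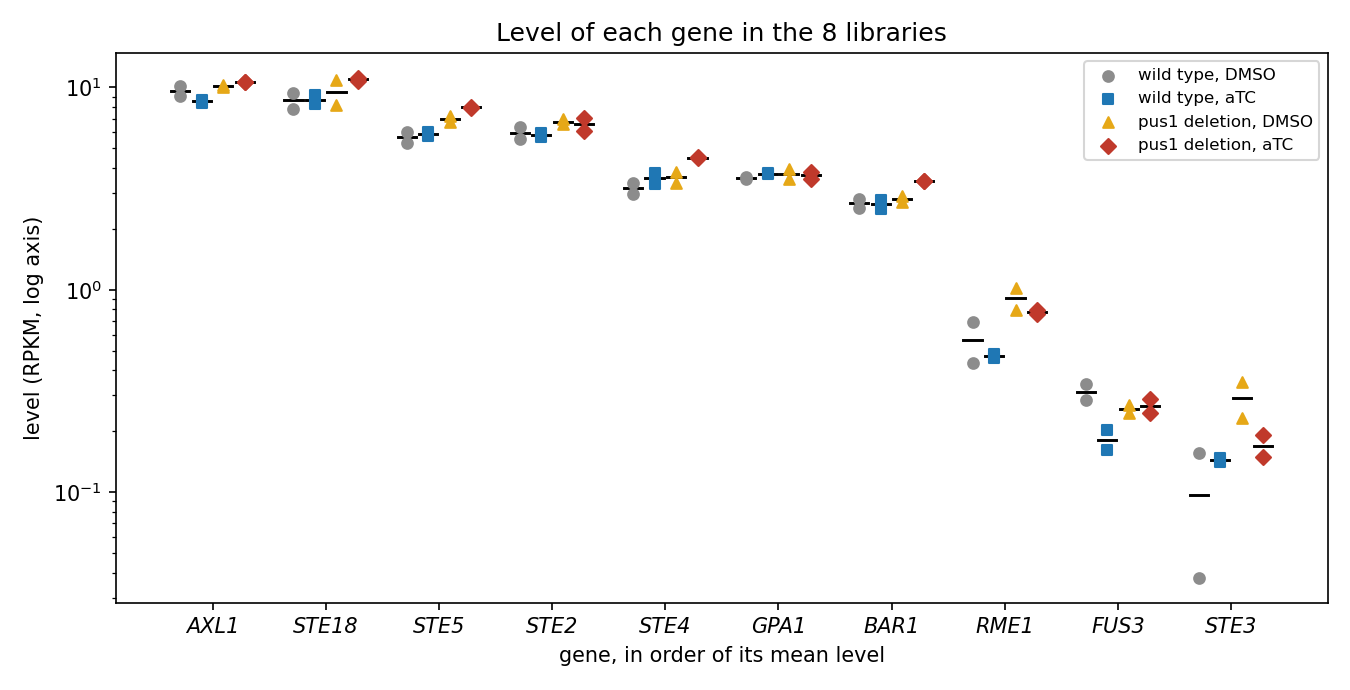
Level in RPKM on a log axis for each of the 10 genes in the 8 libraries, by group, with short lines at group means of 2 libraries. For STE5 and RME1 all 4 deletion libraries lie above all 4 wild-type libraries, as they do for 11% of all tested genes. GPA1 lies between 3.52 and 3.93 RPKM throughout.

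STE2, the alpha-factor receptor of a cells, was read at 6.34 and 5.57 RPKM in wild type with DMSO and 5.94 and 5.68 RPKM in wild type with aTC. It was read at 6.61 and 6.94 RPKM in the deletion with DMSO and 7.05 and 6.10 RPKM in the deletion with aTC. The deletion libraries tended higher, and 1 of them (6.10 RPKM) fell within the wild-type range. STE3, the a-factor receptor of alpha cells, was read at 0.156 and 0.0378 RPKM in wild type with DMSO, 0.140 and 0.148 in wild type with aTC, 0.352 and 0.232 in the deletion with DMSO, and 0.191 and 0.148 in the deletion with aTC. These levels rest on 3 to 26 reads per library, and the lowest is at the limit of 3 reads that a count of 0 allows. STE3 overlaps another listed gene, YKL177W, and counting used no strand, so its value is uncertain.

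When both treatments were averaged, 4 of the 10 genes rose in the deletion and 0 fell: STE5, AXL1, RME1 and STE4. In that comparison 21.2% of all tested genes were called, 10% higher (593 of 5932) and 11.2% lower (667). All 10 fitted log2 fold changes were above 0, as were those of 3032 of the 5932 tested genes. The median of the 10 was 0.23, against a median of 0.0035 over all genes tested. The value of GPA1, 0.016, changed sign with some single libraries left out. Calls rest on edgeR's quasi-likelihood F test, with Benjamini-Hochberg adjusted p below 0.05 over all 5932 genes. DESeq2 called 2 of the 10, STE5 and AXL1, beside 1331 of the 5932 tested genes. It gave no adjusted p for RME1, STE3 and FUS3. The edgeR count was 1 without deletion aTC replicate 1, deletion DMSO replicate 1 or 2 or wild-type DMSO replicate 2, and 2 without deletion aTC replicate 2 or wild-type aTC replicate 1.

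STE5, the scaffold on which the mating kinases assemble, was the clearest. Its level was 6.03 and 5.33 RPKM in wild type with DMSO and 5.78 and 6.05 RPKM in wild type with aTC. It was 6.78 and 7.20 RPKM in the deletion with DMSO, and 7.99 and 7.95 RPKM in the deletion with aTC. Every deletion library was above every wild-type library, which held in that direction for 11% of all tested genes. STE5 was 1.29-fold higher in the deletion (log2 fold change 0.37, SE 0.0574, edgeR adjusted p = 0.0067). It was called with each of the 8 libraries left out in turn, with adjusted p from 0.00122 to 0.0499.

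AXL1, the protease that trims the a-factor precursor and also directs axial budding in haploids, was read at 10.1 and 9.03 RPKM in wild type with DMSO and 8.41 and 8.70 RPKM in wild type with aTC. It was read at 9.999 and 10.2 RPKM in the deletion with DMSO and 10.6 and 10.6 RPKM in the deletion with aTC. The wild-type DMSO replicate 1 overlapped the deletion. The average fold was 1.15 (log2 fold change 0.20, SE 0.0493, edgeR adjusted p = 0.0204). The call was lost without the deletion's aTC replicate 1 (adjusted p = 0.0541), its DMSO replicate 1 (0.0688), its DMSO replicate 2 (0.0968) or wild-type DMSO replicate 2 (0.0802).

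RME1, the repressor of meiotic entry, had 31 and 22 reads in wild type with DMSO and 25 and 23 in wild type with aTC. It had 48 and 44 reads in the deletion with DMSO and 40 and 39 in the deletion with aTC. On the RPKM scale the deletion ran from 0.755 to 1.02 and the wild type from 0.433 to 0.690, without overlap. The deletion libraries were likewise all above the wild-type libraries for 11% of all tested genes. RME1 was 1.63-fold higher in the deletion (log2 fold change 0.71, SE 0.193, edgeR adjusted p = 0.0272). The fitted difference was 0.70 with DMSO and 0.72 with aTC, and neither alone passed the test (adjusted p = 0.244 and 0.103). With DMSO it was 1.04 without wild-type DMSO replicate 1 and 0.38 without wild-type DMSO replicate 2. The averaged call was lost without deletion aTC replicate 1 (0.078) or 2 (0.0525), deletion DMSO replicate 1 (0.101) or 2 (0.0665), wild-type aTC replicate 1 (0.0686) or wild-type DMSO replicate 2 (0.0868).

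STE4, the G protein beta subunit that carries the signal onward, was read at 3.36 and 2.98 RPKM in wild type with DMSO and 3.77 and 3.33 RPKM in wild type with aTC. It was read at 3.38 and 3.81 RPKM in the deletion with DMSO and 4.46 and 4.52 RPKM in the deletion with aTC. The deletion with aTC stood above all other libraries, while the DMSO libraries of the deletion overlapped the wild type. The average fold was 1.20 (log2 fold change 0.26, SE 0.0836, edgeR adjusted p = 0.0465). This call was lost with each of the 8 libraries left out in turn (0.0531 to 0.191), and with the replicate number as a block (adjusted p = 0.0527).

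The other 6 genes did not pass the averaged test. BAR1, the secreted protease that degrades alpha-factor, had a log2 fold change of 0.23 (95% interval 0.06 to 0.40, edgeR adjusted p = 0.0553). STE2 had 0.18 (0.019 to 0.347, adjusted p = 0.0994). STE3 had 0.92 (0.13 to 1.71, adjusted p = 0.0867), which became a call only without wild-type DMSO replicate 1 (log2 fold change 1.55, adjusted p = 0.0357). Without wild-type DMSO replicate 2 it was 0.55 (adjusted p = 0.256). STE18, the G protein gamma subunit, was read at 7.84 to 9.40 RPKM in wild type and 8.15 to 11.1 RPKM in the deletion, overlapping. It had 0.24 (−0.005 to 0.483), and it overlaps another listed gene, YJR087W, so its value is uncertain. FUS3, the mating kinase, had 18 and 17 reads in wild type with DMSO, 13 and 9 in wild type with aTC, 15 and 16 in the deletion with DMSO, and 17 and 15 in the deletion with aTC. The lowest were both wild-type libraries with aTC. Its log2 fold change was 0.14 (−0.40 to 0.67). GPA1, the G protein alpha subunit that holds the pathway off, had 0.016 (−0.148 to 0.179).

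**Figure D3:**
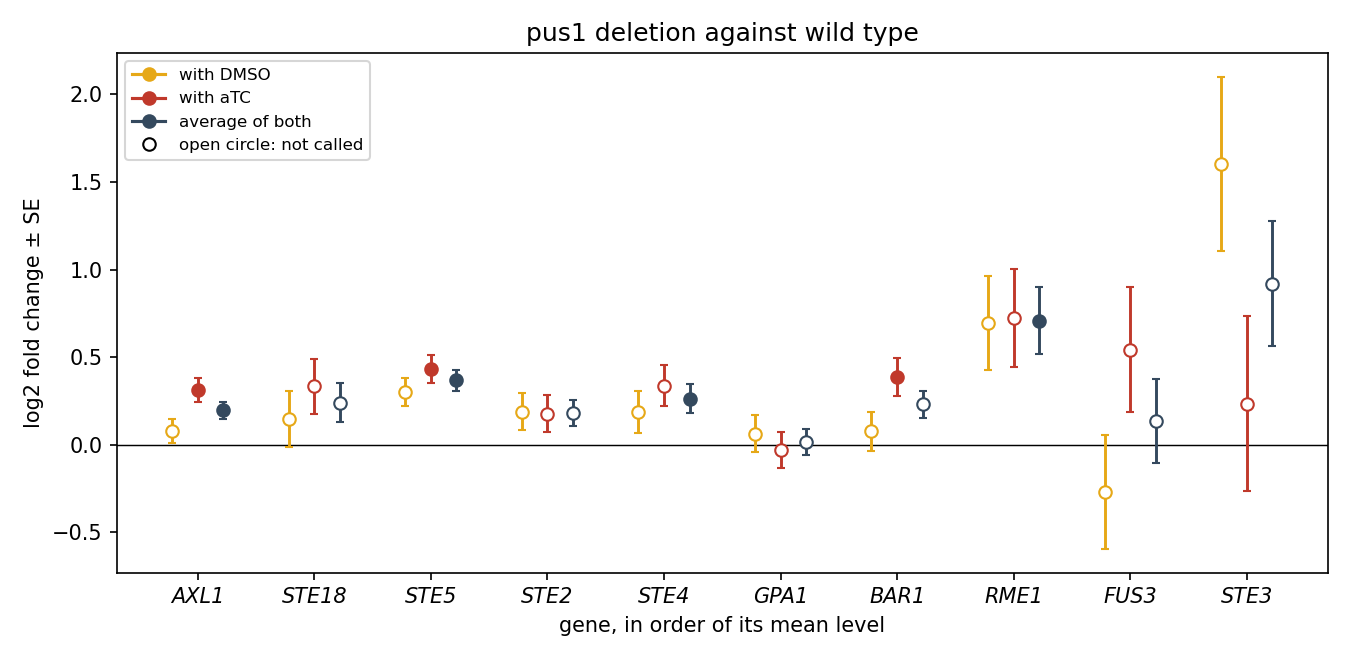
Log2 fold change of the deletion against wild type (y axis) with its standard error, for the 10 genes with DMSO, with aTC and averaged over both. Filled circles passed the test and open circles did not. STE5, AXL1, RME1 and STE4 are filled for the average, and STE5, AXL1 and BAR1 with aTC.

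With aTC, 3 of the 10 genes rose in the deletion against wild type and 0 fell, where 13.6% of all tested genes were called, 5.50% higher and 8.13% lower. STE5 was 1.35-fold higher (log2 fold change 0.43, SE 0.0807, edgeR adjusted p = 0.0152). AXL1 was 1.24-fold higher (0.31, SE 0.0698, adjusted p = 0.021). BAR1 was 1.31-fold higher (0.39, SE 0.108, adjusted p = 0.0395, DESeq2 adjusted p = 0.0849). Its level was 2.79 and 2.50 RPKM in wild type with aTC and 3.46 and 3.46 RPKM in the deletion with aTC, while the DMSO libraries ran from 2.54 to 2.92 RPKM. Both deletion libraries were above both wild-type libraries for 9 of the 10 genes, all but GPA1, and for 30.9% of all tested genes. For STE3 that separation rested on 15 and 12 reads in the deletion against 12 and 11 in wild type. For FUS3 it rested on 17 and 15 against 13 and 9.

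The calls with aTC leaned on few libraries. All 3 were lost without deletion aTC replicate 1, with adjusted p = 0.132 for STE5, 0.135 for AXL1 and 0.157 for BAR1, and all 3 without wild-type aTC replicate 1, with 0.0736, 0.108 and 0.112. AXL1 also lost its call without deletion DMSO replicate 2 (0.0527). BAR1 lost its call without deletion aTC replicate 2 (0.0888), deletion DMSO replicate 1 (0.0704) or 2 (0.0742) or wild-type aTC replicate 2 (0.107) as well.

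With DMSO, 0 of the 10 genes were called between deletion and wild type by edgeR and 0 by DESeq2, where edgeR called 0.219% of all tested genes. At an unadjusted p under 0.05, which 16.5% of all tested genes passed, there were 3, all higher in the deletion: STE3 (log2 fold change 1.60, adjusted p = 0.183), STE5 (0.30, adjusted p = 0.146) and RME1 (0.70, adjusted p = 0.244). The median over the 10 was 0.17. These differences are between strains that both held the uninduced construct.

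The inducer itself was followed by no called change. In the deletion, aTC against DMSO gave 0 called genes of the 10 by edgeR, beside 0.506% of all tested genes, and a median log2 fold change of 0.06. DESeq2 also called 0, beside 374 over all tested genes, and gave no adjusted p for FUS3, RME1 and STE3. By edgeR, 3 genes had an unadjusted p under 0.05, all higher with aTC, where 22.6% of all tested genes passed that threshold. STE4 had 0.32 (95% interval 0.064 to 0.572, adjusted p = 0.143), BAR1 had 0.29 (0.056 to 0.529, adjusted p = 0.146) and STE5 had 0.19 (0.013 to 0.365, adjusted p = 0.19). In wild type, 0 were called by either tool, beside 0.371% of all tested genes. AXL1 was the 1 gene at an unadjusted p under 0.05, beside 4.99% of all tested genes, with −0.16 (−0.318 to −0.009, edgeR adjusted p = 0.963). FUS3 and STE3, the genes with the fewest reads, had the widest intervals. FUS3 had −0.76 in wild type (−1.531 to 0.012) and 0.054 in the deletion (−0.676 to 0.783). STE3 had 0.61 in wild type (−0.669 to 1.89) and −0.76 in the deletion (−1.702 to 0.186). Averaged over both backgrounds, 0 of the 10 were called by either tool beside 1.31% of all tested genes, and STE4 alone had an unadjusted p under 0.05, beside 18.9% of all tested genes (0.24, edgeR adjusted p = 0.176).

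**Figure D4:**
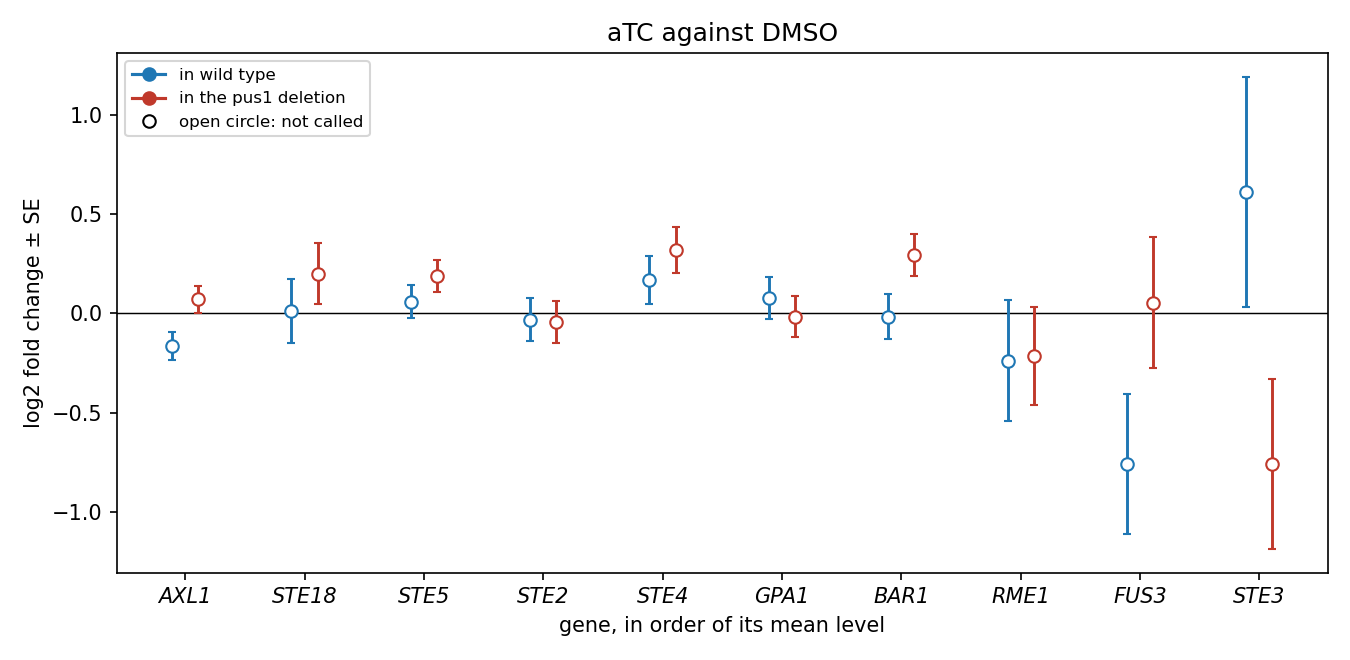
Log2 fold change of aTC against DMSO (y axis) with its standard error, for the 10 genes in wild type and in the deletion. All circles are open, since no gene passed the test. STE4 and BAR1 lie at 0.32 and 0.29 in the deletion and at 0.17 and −0.016 in wild type.

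The difference between the 2 responses to aTC, tested as an interaction, was called for 0 of the 10 genes by either tool and for 0.0169% of all tested genes by edgeR. AXL1 was the 1 gene with an unadjusted p under 0.05, beside 7.23% of all tested genes, at 0.23 (95% interval 0.017 to 0.451, edgeR adjusted p = 0.66). For BAR1 the difference was 0.31 (−0.033 to 0.650). The calls for the deletion with aTC and their absence with DMSO are therefore not shown to differ. The comparisons share libraries, since the deletion with aTC enters both its contrast with wild type and its contrast with DMSO.

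The libraries did not order all 10 genes alike. Over 45 pairs of genes the Pearson correlation of log2 CPM across the 8 libraries had a median of 0.446 and ran from −0.427 to 0.941, with 21 pairs above 0.5 and 8 below 0. STE4 and BAR1 were the closest pair (0.941). The points share library and genotype. The mean profile of the 10, each centred on its own mean, weights every gene equally. STE3, FUS3 and RME1, with 3 to 48 reads per library, thus count as much as AXL1. The profile ran from 0.131 to 0.202 in the deletion libraries and from −0.298 to −0.003 in wild type. Among genes outside the 10, CDC6 (replication licensing, r = 0.977), PCH2 (the meiotic checkpoint ATPase, 0.974) and YLL020C (0.967) had the profiles most like it over 8 libraries.

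Other genes of the pathway were read from 9 lists of 67 genes, of which 60 were tested. Averaged over treatment, 10 were higher and 4 lower in the deletion, with a median log2 fold change of 0.07. These 14 are 23.3% of the 60, near the 21.2% called over all tested genes. By direction, 16.7% of the 60 were higher and 6.67% lower, beside 10% and 11.2% over all tested genes. IME2 alone stayed called with each of the 8 libraries left out in turn. The 14 calls became 1 without deletion DMSO replicate 1, 2 without deletion DMSO replicate 2, 6 without deletion aTC replicate 1 or wild-type DMSO replicate 2, and 9 without wild-type DMSO replicate 1.

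Among 17 tested pheromone-induced and cell fusion genes, 4 rose and 0 fell, where 10% of all tested genes were higher and 11.2% lower. The 4 were FIG1 (a mating-induced membrane protein, 0.68), PRM2 (nuclear fusion, 0.34), KAR5 (nuclear fusion, 0.22) and FIG2 (a cell wall adhesin, 0.16). With single libraries left out, the FIG2 call was lost in most cases (log2 fold change 0.12 to 0.19). FIG1 was read at 4.09 and 2.86 RPKM in the deletion with DMSO and at 1.46 to 2.15 RPKM in the other 6 libraries. Of 16 signalling kinases, regulators and effectors, 1 rose and 2 fell, beside the same shares of all tested genes. MSG5 (the phosphatase of Fus3) rose by 0.17, while STE12 (the pathway's transcription factor) fell by 0.14 and DIG1 (its inhibitor) fell by 0.20. None of these calls held with every library left out in turn, and the STE12 call was lost in most cases. The log2 fold change then ran from −0.18 to −0.099 for STE12, 0.14 to 0.20 for MSG5 and −0.27 to −0.15 for DIG1.

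Of the genes that mark each mating type, 0 of 5 other a-specific genes were called by edgeR, beside 21.2% of all tested genes. DESeq2 called 0 and gave no adjusted p for MFA1 and AGA2. By edgeR there was 1 at an unadjusted p under 0.05, a threshold that 37.3% of all tested genes passed in the averaged comparison. Of 4 alpha-specific genes AFB1 (a pheromone barrier protein) rose by 0.48, where 10% of all tested genes were higher. AFB1 was called by edgeR (adjusted p = 0.0191) but not by DESeq2 (adjusted p = 0.0579). The levels within these lists were uneven. SAG1, the alpha-agglutinin, stood at 27.2 to 33.5 RPKM, while the alpha-factor gene MF(ALPHA)1 stood at 0.188 to 0.603 RPKM and MF(ALPHA)2 at 11.4 to 15.0 RPKM. The a-factor genes MFA1 and MFA2 had 14 to 24 and 53 to 80 reads. Both other haploid-specific genes, NEJ1 and HO, were tested and 0 were called by either tool, beside the same 21.2% by edgeR. At an unadjusted p under 0.05 there was 1, beside the same 37.3% of all tested genes.

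Of the 6 mating-type locus genes listed, YCR097W, the a1 copy at HMR, had 458 to 686 reads and the other 5 had 0 in every library. Counting took uniquely aligned reads, so near-identical copies at MAT, HML and HMR are uncertain, and a count of 0 there says nothing about alpha2 or alpha1. YCR097W was not called in the averaged comparison of genotypes (log2 fold change −0.083).

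Among partners of the repressors, MCM1, which binds with alpha2 at a-specific genes, was lower in the deletion. Its level was 78.1 and 102.5 RPKM in the deletion with aTC, 114.2 and 110.3 RPKM in the deletion with DMSO, and 115.2 to 129 RPKM in wild type. The averaged log2 fold change was −0.28 (edgeR adjusted p = 0.0209), and with aTC alone it was −0.38 (adjusted p = 0.0304). The averaged call was lost without deletion DMSO replicate 1 or 2, and over the 8 libraries left out in turn the log2 fold change ran from −0.39 to −0.18 and the adjusted p up to 0.0968. The call with aTC was lost without deletion aTC replicate 1, deletion DMSO replicate 1 or 2 or wild-type aTC replicate 1, with a range of −0.60 to −0.20 and adjusted p up to 0.155. TUP1, the corepressor of both repressors, was not called between genotypes and rose with aTC averaged over genotypes (0.28, adjusted p = 0.0115). All strains hold a TetR-Tup1 construct, and its reads cannot be told apart from those of native TUP1. CDC42, the polarity GTPase, also rose with aTC averaged over genotypes (0.34, adjusted p = 0.0117). The TUP1 call was lost without deletion aTC replicate 1 or deletion DMSO replicate 1 or 2, and the CDC42 call without deletion DMSO replicate 1 or 2 or wild-type DMSO replicate 1, at adjusted p up to 0.131 and 0.115.

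Of 9 pheromone maturation enzymes, STE13 (0.17) and RAM2 (0.13) rose and KEX1 fell by 0.20. For this list and the next, 10% of all tested genes were higher and 11.2% lower in the averaged comparison. RAM2 was called by edgeR (adjusted p = 0.0496) but not by DESeq2 (adjusted p = 0.0629). With single libraries left out, the RAM2 and STE13 calls were lost in most cases (log2 fold changes 0.098 to 0.16 and 0.13 to 0.21). RAM2 acts on a-factor, and STE13 and KEX1 act on alpha-factor. Of 3 Rme1 targets and meiotic inducers, IME2 (a meiotic kinase) rose by 0.42 and IME4 (an RNA methyltransferase of meiotic entry) by 0.16. The IME4 call was likewise lost in most cases (0.14 to 0.19). IME1, the meiotic inducer that Rme1 represses, had 0.072 (95% interval −0.223 to 0.366, edgeR adjusted p = 0.723). IME4 is known to have an antisense transcript in haploids, and counting without strand cannot tell the reads of both strands apart. With aTC, 4 of the 60 (6.67%) were called between genotypes, below the 13.6% over all tested genes: PRM2 (0.50) and IME2 (0.52) were higher, and KEX1 (−0.26) and MCM1 (−0.38) were lower. That count was 0 without deletion aTC replicate 1 or wild-type aTC replicate 1, 1 without deletion DMSO replicate 2, 2 without deletion DMSO replicate 1, 7 without deletion aTC replicate 2 and 15 without wild-type aTC replicate 2.

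**Figure D5:**
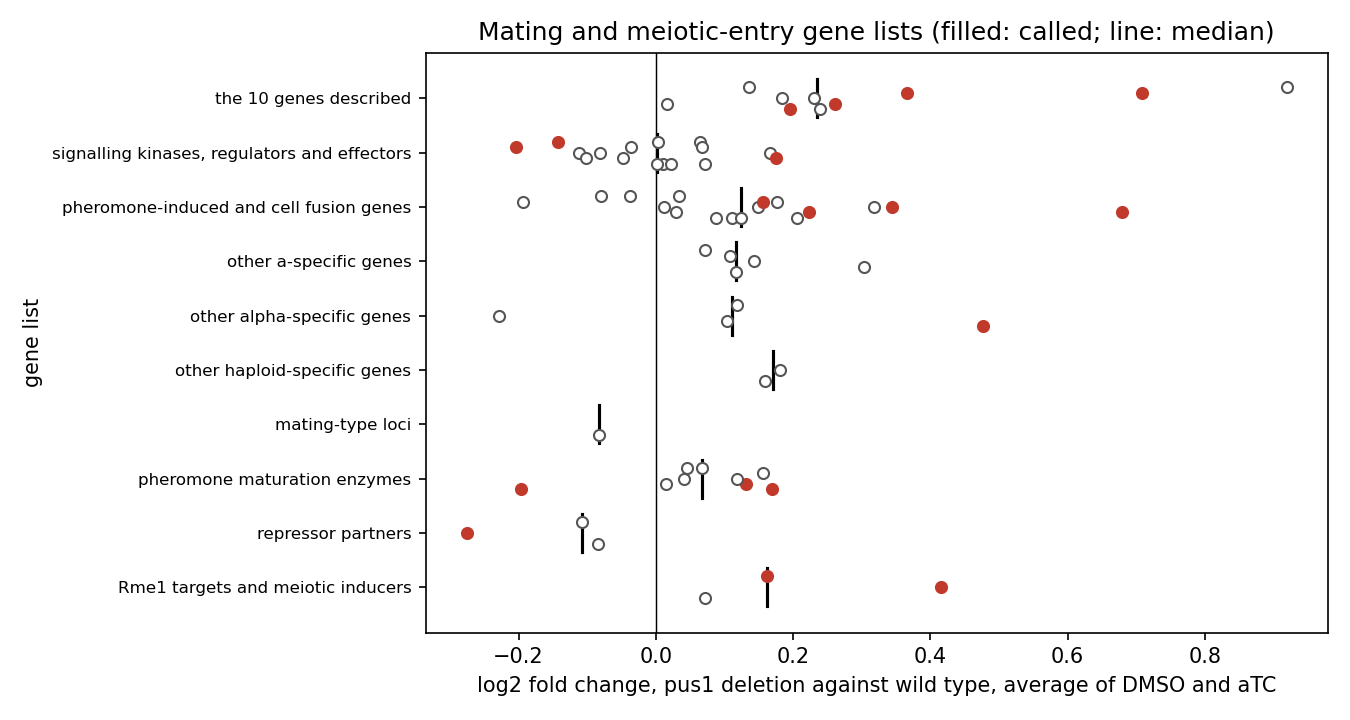
Log2 fold change of the deletion against wild type averaged over DMSO and aTC (x axis) for each tested gene of the 10 and of the 9 other lists (y axis). Filled points were called, open points were not, and each short line is the list's median, which is 0.23 for the 10 genes and 0.12 for the pheromone-induced genes.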

How the data were processed

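The authors deposited raw counts per gene for each library, made with featureCounts 2.0.1 over exons, per the file headers. The headers set neither a strand nor an overlap option and kept unique alignments alone, so antisense reads were counted and reads shared by overlapping genes were dropped. Alignment was with STAR per the submitters' processing notes, and its version is not given in the sources used here. The headers name no genome build, and none of the files' coordinates are printed. The library kit was directional, per the labels. Gene symbols came from RefSeq's table of assembly R64, which matched 5931 of the 6663 identifiers.

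Counts were tested in R 4.3.3 with edgeR 4.0.16 (quasi-likelihood F test, TMM scaling, default expression filter, 1 mean per group over all 8 libraries, 4 residual degrees of freedom). Averaged comparisons weighted both treatments or genotypes equally. RPKM levels were computed from the counts with TMM-scaled library sizes. The SE is the log2 fold change over the root of the F statistic. The fit was tested on simulated data. At these depths 3 reads correspond to 0.0484 to 0.0584 CPM, a floor for counting error alone, because PCR copies cannot be told from separate molecules here. The 95% intervals of log2 fold changes come from the edgeR fit and include the spread between replicates.

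The 10 genes, the pathway lists and the tests were chosen with earlier results of these data known. The genes named are the 10, each called pathway gene (at most 4 of a list in a comparison), the 3 whose profile was most like the mean of the 10, and PUS1. Further marker and mating-type genes are given by level, and some with their test results. IME1 is given as the gene that Rme1 represses. The planned promoter table was not used here. Sequence was read from the R64 genome by its own annotation, and the window of 500 bases and the 3 other windows were chosen after seeing the data.

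Alternatives were DESeq2 1.42.0, RLE scaling, no expression filter, the replicate number as a block, the 4 compared libraries alone, and each library left out.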

Additional observations from a re-analysis of the deposited data

How the results depend on the processing

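In all 7 comparisons the fitted log2 fold changes of the 10 genes kept their direction with RLE scaling, no filter, the replicate block and, where it gave an adjusted p, DESeq2. The number of the 10 called stayed at 0 under all alternatives in 5 comparisons. For the averaged genotype comparison it was 2 with DESeq2 in place of 4, and 1 to 4 with single libraries left out. With aTC alone it was 0 to 3 with libraries left out, in place of 3. In that comparison DESeq2 gave 2, and the 4 compared libraries alone also gave 2. The cause of these shifts was not tested, though each left-out library also removes a replicate.

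The replicate block gave 3 of the 10 in the averaged genotype comparison, losing STE4 (log2 fold change 0.26, adjusted p = 0.0527). Deviations of same-numbered libraries correlated between −0.156 and 0.143 over the 6 pairs of groups, so the numbers were not taken to pair samples. Between genotypes with DMSO the block gave 28 calls over all genes in place of 13, and 1 among the other pathway genes in place of 0.

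Other counts over all genes moved as follows. With DESeq2 they were 374 (aTC in the deletion, 30 by edgeR), 49 (aTC in wild type, 22), 116 (genotype with DMSO, 13) and 220 (aTC averaged, 78). With the 4 compared libraries alone they were 702, 11 and 261 in the first 3 of these, and 369 for the genotype with aTC (808 in the full fit). For the genotype with DMSO, RLE scaling gave 21 and no filter 29. Among the other pathway genes, aTC in the deletion gave 5 with DESeq2 and 7 with the 4 libraries, in place of 0. Against 0 there were also 2 with DESeq2 for aTC in wild type, and, for the genotype with DMSO, 1 with DESeq2, 1 without the filter and 2 with the 4 libraries. For the genotype with aTC, DESeq2 gave 9 and no filter 7, in place of 4.

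With single libraries left out, counts over all genes ran from 9 to 549 (aTC in the deletion), 14 to 27 (aTC in wild type), 1 to 106 (genotype with DMSO), 3 to 1408 (genotype with aTC), 1 to 175 (interaction), 20 to 551 (aTC averaged) and 99 to 1746 (genotype averaged). Among the other pathway genes they ran from 0 to 5, 0 to 0, 0 to 1, 0 to 15, 0 to 0, 0 to 5 and 1 to 20 in the same order.

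Leaving out a library changed the sign of 33 of 560 fitted values, in 19 of 70 gene-by-comparison results, none of them called. For aTC in the deletion the log2 fold change ran from −0.15 to 0.041 for STE2, −0.099 to 0.062 for GPA1 and −0.059 to 0.15 for FUS3. For aTC in wild type it ran from −0.12 to 0.061 for STE2, −0.11 to 1.89 for STE3, −0.024 to 0.15 for STE5, −0.11 to 0.16 for STE18, −0.097 to 0.059 for BAR1 and −0.55 to 0.11 for RME1. For the genotype with DMSO it ran from −0.085 to 0.33 for STE18, −0.015 to 0.14 for GPA1 and −0.0027 to 0.16 for AXL1. GPA1 ran from −0.093 to 0.021 for the genotype with aTC, −0.021 to 0.056 for the genotype averaged and −0.013 to 0.068 for aTC averaged. For aTC averaged, STE2 ran from −0.093 to 0.005 and STE3 from −0.44 to 0.56. The interaction ran from −0.12 to 0.086 for STE2 and −0.33 to 0.33 for RME1. Depth limits RME1, FUS3 and STE3 most, at 3 to 48 reads per library.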
